A study of Mus musculus with 23 samples.

Results

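PLET1+ and PLET1- thymic epithelial cells (TECs) with a conditional deletion of *Rbpj* were compared at embryonic day E14.5. The comparison used the 3 PLET1+ and the 3 PLET1- libraries whose labels give this age and the genotype Foxn1Cre RbpjFL/FL (the *Rbpj* cKO), 6 of the 23 libraries of the series, and each PLET1+ library was set against the PLET1- library with the same replicate number. Each library was made from 100 sorted cells of E14.5 thymus with Smart-seq2, in which whole cDNA is amplified without tagging single molecules. The 3 PLET1+ and 3 PLET1- E14.5 libraries labelled as controls, from littermates of the same cross, were set beside them; as the cross used floxed *Rbpj* alleles, a control may have carried such an allele. The labels give the strain as C57BL/6, whereas the study's methods name a cross with CBA for fetal TECs. In the cKO, Cre is driven from the *Foxn1* locus and so acts only once *Foxn1* has come on in TECs. The labels do not say whether same-numbered PLET1+ and PLET1- libraries came from the same thymus, or whether numbers mark separate embryos. The spread between libraries behind the p-values may therefore be in part technical. In the main fit this spread was estimated over all 23 libraries, other ages and genotypes included, and not from the 6 cKO libraries alone.

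PLET1 is a cell surface protein found on the earliest progenitors of the thymic epithelium, and fewer TECs carry it as they mature into the cortical (cTEC) and medullary (mTEC) lineages. Cortical TECs make the peptides and chemokines that select and attract early thymocytes, and much of their program is switched on by the transcription factor FOXN1. Notch receptors are cleaved on contact with a ligand on a neighbouring cell, and the freed intracellular domain acts on its target genes through the DNA-binding protein RBPJ. The comparison asked how the sorted progenitor-like and differentiated TEC populations differ when *Rbpj* is conditionally deleted.

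*Rbpj* itself (ENSMUSG00000039191.12, chromosome 5, 53466152 to 53657362, GRCm38) had 0.0611, 10.4 and 6.95 CPM (counts scaled to library size with edgeR's TMM factors) in replicates 1, 2 and 3 of the cKO PLET1+ libraries and 4.44, 3.42 and 8.29 CPM in the cKO PLET1- libraries. All 6 values lay below those of the same population in the controls, 20.4, 20.2 and 18.4 CPM in PLET1+ and 9.5, 11.1 and 26.2 CPM in PLET1-, and counts were summed over the whole gene, so that transcripts lacking only the deleted exons still counted. The 2 cKO populations overlapped. The sort was visible in the transcript of the sorting marker: *Plet1* (ENSMUSG00000032068.14, chromosome 9, 50494525 to 50505482) had 10.2, 28.3 and 28.4 CPM in PLET1+ and 0, 2.57 and 1.57 CPM in PLET1- libraries, with no overlap. *Epcam*, the epithelial surface marker, had 724, 598 and 644 CPM in PLET1+ and 573, 525 and 541 CPM in PLET1- libraries, without overlap, and all 6 libraries expressed the TEC genes *Foxn1*, *Pax1*, *Pax9*, *Psmb11* and *Prss16*.

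Between 24561602 and 52617261 fragments were counted on genes in the 6 libraries, and 16229 to 19645 genes were detected. Replicate 1 stood apart in both populations. Its PLET1+ and PLET1- libraries carried 9.15% and 8.11% of their counts on mitochondrial genes against 4.21% to 5.36% in the other 4, and they held the fewest detected genes, 16229 and 17102 against 18059 or more. Replicates 2 and 3 of the same population correlated at 0.894 and 0.908 across the 19140 genes tested (Pearson's r on the log2 scale, across genes, which are not independent), and replicate 1 correlated with them at 0.821 to 0.850. Replicate 1 was therefore also left out as a pair, and its effect is given beside the results it touched. Replicates 1 and 2 belong to one of the labelled batches and replicate 3 to another, so that each pair lay within 1 batch.

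Between cKO PLET1+ and PLET1- TECs 0 genes reached an adjusted p of 0.05 (0% of 19140 tested, edgeR's quasi-likelihood test with the replicate pair as a block, Benjamini-Hochberg adjustment), and the smallest adjusted p was 1. At an unadjusted p under 0.05, 164 genes (0.857%) were higher and 109 (0.569%) lower in PLET1+ TECs. Together they were 1.43% of the genes tested, less than the share of 0.05 expected under this p when no gene differs. Counts of genes at this p are therefore no excess in this fit, whose spread was estimated over all 23 libraries. The same data gave 64 calls with DESeq2, 44 higher and 20 lower and 2 with limma-voom. On data simulated from these libraries DESeq2 made many more false calls than edgeR's test or limma-voom, and its calls are given as counts only. The simulated counts were drawn from edgeR's own fit, a setting that may favour edgeR, so they cannot rank the tools. In them edgeR's test missed most of the changes put in and DESeq2 missed fewer, so 0 calls does not mean that no gene differed. In the controls 0 genes were called by edgeR and 323 (1.69%) had an unadjusted p under 0.05. The values below are therefore a description of levels and of their direction in each pair, and every gene named that was tested had an adjusted p of 1 in edgeR's test. Over all genes tested, 11.6% were higher in PLET1+ in all 3 pairs and 13.2% lower in all 3, and these shares were 14.8% and 17.9% among the 9942 genes with a mean of at least 5 CPM. The libraries of the populations did not overlap for 3.09% of genes in the higher and 3.49% in the lower direction.

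The direction of the difference could be set beside the control pairs, which share no library with the cKO. Of the 273 genes with an unadjusted p under 0.05 in the cKO, 213 (78.0%) had the same sign in the controls, against 55.6% of all genes tested and 59.1% of the 9976 with a mean of at least 5 CPM in that set. Leading genes were the 12 per direction with the smallest p among those that differed one way in all 3 pairs. They also had to reach a mean of 5 CPM in the higher group. Of these 24, 23 (95.8%) had the same sign in the controls, but the shares above had no condition on the pairs. Genes below that mean were passed over. Some of them had p-values as small, with the same sign in the controls or, as for *Notch3*, the opposite sign. When the PLET1 difference was averaged over cKO and control pairs, a test added after the data had been seen, 1 gene was called, *Gstm2*, at an adjusted p of 0.0126 in edgeR's test, and *Krt5* had an adjusted p of 0.0504.

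Genes of the cortical program were lower in PLET1+ than in PLET1- cKO TECs. All 14 cortical genes had a negative fitted log2 fold change, where 50% of all genes tested did, and 12 of the 14 were lower in all 3 pairs. The populations did not overlap for 4 of them, *Psmb11*, *Ly75*, *Cd83* and *Kitl*, and 4 had an unadjusted p under 0.05. The median log2 fold change over the list was −0.77 in the cKO and −0.61 in the controls, where 12 of 14 were also lower in all 3 pairs. Without replicate 1 all 14 stayed negative, with a median of −0.62, and 12 were lower in pairs 2 and 3, as were 24.7% of all genes (26% were higher in both). With libraries of sorted cells, fewer cells that express a gene and less RNA of it per cell cannot be told apart. The summed markers of mesenchymal and of parathyroid cells, given further on, were also lower in PLET1+ in each of the 3 pairs, and their part in the difference was not tested.

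The promoters of 3 genes are shown, 2 from the cortical list and *Krt5*, which differed in the other direction. They are RefSeq promoter sequences of GRCm38.p6, 250 bases up to the transcription start, 5′ to 3′ on the gene's own strand, and capitals mark the FOXN1 core motif GACGC on either strand. That motif occurs in 22.6% of 32851 promoters of the same length and the RBPJ core TGGGAA, searched on both strands in the same way, in 21.6%. *Psmb11* is on the plus strand at chr14:54625060-54625309 and holds the FOXN1 letters 2 times, *Dll4* is on the plus strand at chr2:119325534-119325783, and *Krt5* is on the minus strand at chr15:101712906-101713155. The RBPJ letters are in none of these 3 windows, and a match or its absence is a description of the letters only.
Psmb11: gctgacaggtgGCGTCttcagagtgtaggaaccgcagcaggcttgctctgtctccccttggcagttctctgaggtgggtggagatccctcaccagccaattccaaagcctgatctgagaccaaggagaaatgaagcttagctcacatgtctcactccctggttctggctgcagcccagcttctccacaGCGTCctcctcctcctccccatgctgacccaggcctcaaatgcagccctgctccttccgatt
Dll4: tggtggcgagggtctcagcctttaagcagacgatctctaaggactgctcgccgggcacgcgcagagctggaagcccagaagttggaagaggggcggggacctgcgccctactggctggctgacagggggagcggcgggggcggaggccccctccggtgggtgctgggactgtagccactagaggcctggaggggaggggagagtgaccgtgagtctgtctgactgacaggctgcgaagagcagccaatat
Krt5: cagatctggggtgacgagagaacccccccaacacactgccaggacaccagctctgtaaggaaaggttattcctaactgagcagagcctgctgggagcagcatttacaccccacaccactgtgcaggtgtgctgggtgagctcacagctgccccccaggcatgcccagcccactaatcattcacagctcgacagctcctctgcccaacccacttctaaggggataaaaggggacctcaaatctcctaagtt

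*Psmb11* (ENSMUSG00000072423.4, chromosome 14, 54625310 to 54629556) encodes β5t, the catalytic subunit of the proteasome of cortical TECs. It had 377, 889 and 858 CPM in PLET1+ and 1058, 1311 and 1390 CPM in PLET1- cKO libraries, so that every PLET1- library lay above every PLET1+ one. The log2 fold change was −0.91 (standard error 0.38, unadjusted p = 0.0309) in the cKO and −0.99 in the controls. *Prss16* (ENSMUSG00000006179.8, chromosome 13, 22002176 to 22009742), a serine protease of the cortical thymus, had the smallest p of the list. Its levels were 642, 1600 and 1578 CPM in PLET1+ and 1021, 2943 and 2608 CPM in PLET1- libraries, lower in PLET1+ in each pair by a similar factor although the replicate 1 pair was low in both (log2 fold change −0.76, standard error 0.17, unadjusted p = 0.000616).

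*Cxcl12*, a chemokine that draws in lymphoid progenitors, had 122, 472 and 449.5 CPM in PLET1+ and 276, 744 and 744 CPM in PLET1- libraries, lower in each pair (log2 fold change −0.85, standard error 0.27, unadjusted p = 0.00613). The keratin gene *Krt8* had 1244, 3066 and 3001 CPM and 2834, 4490 and 4794 CPM, and the log2 fold change was −0.80. Its partner *Krt18* had 2839, 3340 and 3005 CPM and 4268, 4877 and 5201 CPM, without overlap. Both keratins were lower in PLET1+ in all 3 pairs of the cKO and of the controls.

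*Ly75*, which encodes the cortical surface receptor CD205, had 233, 165 and 233 CPM in PLET1+ and 292, 324 and 369.9 CPM in PLET1- libraries. *Cd83*, a surface protein of antigen-presenting and cortical cells, had 228, 208 and 306 CPM and 347, 389.6 and 551 CPM. Neither overlapped, and their log2 fold changes were −0.66 and −0.79. *Foxn1*, the regulator of TEC differentiation, had 12.6, 142 and 121 CPM in PLET1+ and 56.1, 187 and 185 CPM in PLET1- libraries, lower in each pair, with the replicate 1 pair furthest apart. Its log2 fold change was −1.04 and became −0.49 without replicate 1. *Ccl25*, the chemokine that recruits thymocyte precursors, had 7788, 2101 and 2435 CPM and 9696, 3060 and 4101 CPM, again lower in each pair, and the interleukin gene *Il7* differed least, with a log2 fold change of −0.16. *Ctsl*, the lysosomal protease cathepsin L, and *Enpep*, an aminopeptidase, were the 2 genes that were not lower in every pair.

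**Figure D1:**
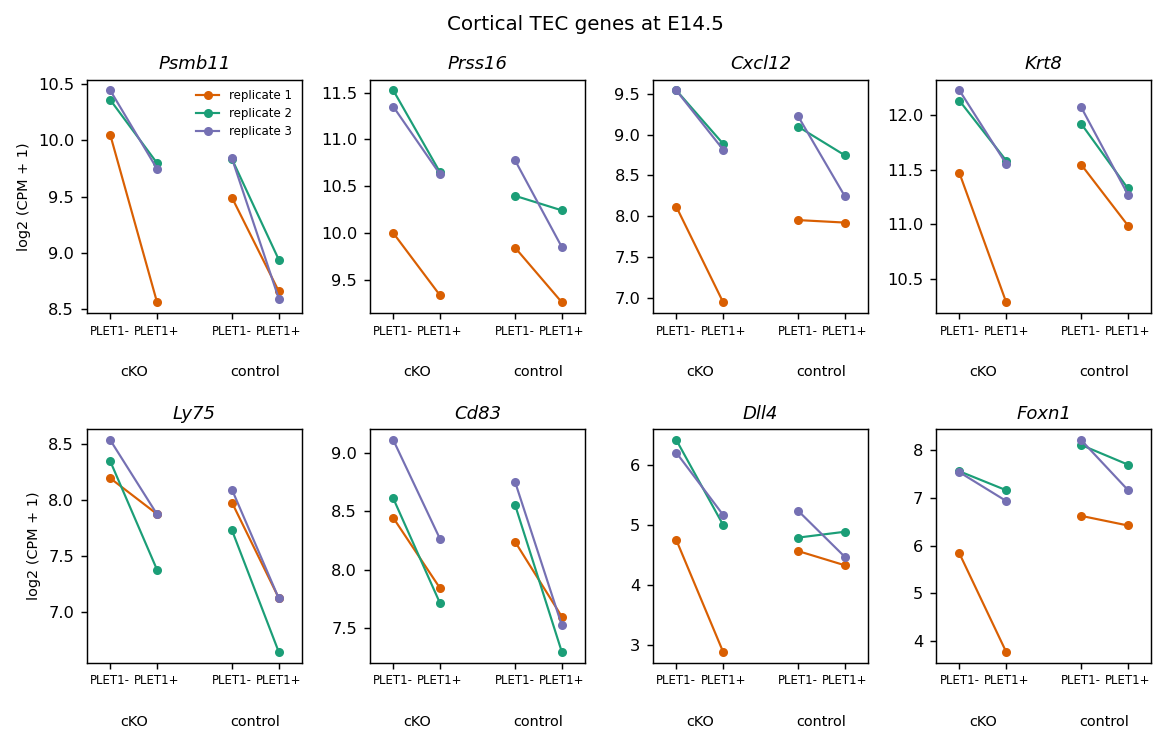
Cortical TEC genes in the 12 E14.5 libraries, as log2 (CPM + 1) on the y axis, with a separate scale for each gene. Lines join the PLET1- and PLET1+ libraries of one replicate number, cKO on the left and control on the right of each panel. In the cKO all lines run down from PLET1- to PLET1+, and replicate 1 lies lowest for all genes but *Ly75* and *Cd83*.

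Most antigen presentation genes had negative fitted log2 fold changes as well. Of 12 MHC class II pathway genes 11 had a negative fitted log2 fold change, with a median of −0.66 in the cKO and −0.65 in the controls, but only 2 were lower in all 3 pairs. *Ciita*, the master regulator of class II genes, had 0.305, 9.39 and 5.48 CPM in PLET1+ and 9.6, 13.3 and 12.1 CPM in PLET1- libraries, without overlap. *H2-Ab1*, a class II chain, had 3039, 2142 and 1762 CPM and 4705, 2069 and 2587 CPM, and the second pair went the other way. *H2-DMb2*, a class II peptide-loading chain, had an unadjusted p of 0.0223, but its second PLET1+ library, at 29.5 CPM, was the highest of the 6, while the other 2 held 0 and 0.0237 CPM. The median over the class II list was −0.22 without replicate 1, with 9 of 12 genes lower. In the second pair alone the median log2 ratio was 0.09. Of the 12 genes, 2 were lower and 1 higher in both pairs 2 and 3, against 24.7% and 26% of all genes.

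Of 15 class I pathway genes 13 had a negative log2 fold change (median −0.30 in the cKO and −0.29 in the controls), and 9 were lower in all 3 pairs. *Psmb10*, an immunoproteasome subunit, had 409.9, 395 and 364 CPM in PLET1+ and 928, 489 and 642 CPM in PLET1- libraries (log2 fold change −0.77, standard error 0.26, unadjusted p = 0.00975). *Psmb9*, another such subunit, had 242, 191 and 172 CPM and 372, 270.2 and 325 CPM. Neither overlapped. *Calr*, the chaperone calreticulin, had 224, 385 and 405 CPM and 326, 425 and 420.3 CPM, lower in each pair by a small factor, and was higher in PLET1+ in each control pair (unadjusted p of the difference 0.134). Without replicate 1 the class I median was −0.50, with 13 of 15 genes lower, and without replicate 2 it was −0.61, with 14 lower.

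On the other side, genes of early TEC progenitors were higher in PLET1+ cKO TECs. Of 17 genes tested 14 had a positive log2 fold change, and 7 were higher in all 3 pairs, as were 11.6% of all genes. An unadjusted p under 0.05 was reached by 4, among them *Plet1*, on which the cells were sorted. The median was 0.89 in the cKO and 0.88 in the controls, 0.90 without replicate 1 and 0.58 without replicate 3, with 12 of 17 genes higher. The pairs were uneven. From CPM values with 0.5 CPM added, the median log2 ratios of pairs 1, 2 and 3 were 0.246, 0.257 and 1.205. *Krt5* (ENSMUSG00000061527.6, chromosome 15, 101707070 to 101712891), a basal keratin that marks medullary and progenitor TECs, had 51.6, 108 and 52.6 CPM in PLET1+ and 10.2, 17.1 and 23.4 CPM in PLET1- cKO libraries, without overlap. The difference was 4.17-fold (log2 fold change 2.06, standard error 0.51, unadjusted p = 0.00113). In the controls the same gene had 291, 494 and 312 CPM in PLET1+ and 20.2, 138 and 25.4 CPM in PLET1- libraries, so that each control PLET1+ library was above every cKO one, and the PLET1 difference was not shown to differ between genotypes (unadjusted p of the difference 0.156).

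*Cd24a*, a surface protein of immature cells, had 132, 194 and 215 CPM in PLET1+ and 99.6, 90.9 and 135 CPM in PLET1- libraries, higher in each pair (log2 fold change 0.72, unadjusted p = 0.0113). *Sox9*, a transcription factor of epithelial progenitors, had 147, 98.6 and 50.8 CPM and 63.1, 53.1 and 34.4 CPM, higher in each pair as well. The claudin gene *Cldn4* had 0.519, 38.2 and 37.4 CPM in PLET1+ and 0, 40.4 and 7.61 CPM in PLET1- libraries. Its second pair was nearly level and the third differed, and *Cldn3*, which marks mTEC-restricted progenitors with it, had 0, 8.36 and 2.77 CPM and 0, 8.46 and 0 CPM and was at 0 in 3 libraries. *Kitl*, *Fgfr2* and *Bmp4* were the 3 members of the progenitor list with a negative log2 fold change, and *Kitl* is also in the cortical list.

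The gene with the smallest p of all was *Gstm2* (ENSMUSG00000040562.12, chromosome 3, 107981702 to 107986453), a glutathione S-transferase. It had 192, 138 and 135 CPM in PLET1+ and 116, 37.6 and 52.8 CPM in PLET1- cKO libraries, 2.49-fold apart (log2 fold change 1.32, standard error 0.23, unadjusted p = 5.77e-05), and 389, 272 and 236 CPM against 132, 95.8 and 96.5 CPM in the controls. The populations did not overlap in either genotype. *Mt1*, a metal-binding metallothionein, had 20.1, 29.9 and 20.9 CPM in PLET1+ and 8.06, 4.09 and 1.04 CPM in PLET1- cKO libraries, without overlap, and its log2 fold change was 2.82 in the cKO and 2.11 in the controls.

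*Bpifa1*, which encodes a secreted protein of mucosal epithelia, had 6.93, 1064 and 616 CPM in the cKO PLET1+ libraries and 0 counts in all 3 PLET1- libraries. Against a floor of 3 counts per library the mean was at least 7000-fold higher in PLET1+. The first pair was the lowest, and the control libraries had the same pattern, 434, 97.3 and 82.3 CPM in PLET1+ and 0 in PLET1-. *Pkp2*, a plakophilin of desmosomes, had 9.16, 4.74 and 3.53 CPM in PLET1+ cKO libraries and 0 in PLET1-, at least 72.3-fold higher against the same floor, and here the control populations overlapped (0, 3.4 and 5.89 CPM and 2.2, 1.79 and 3.25 CPM). It was the 1 of the 24 leading genes whose sign differed in the controls. *Il1rn*, the interleukin-1 receptor antagonist, had 0.641, 11.9 and 3.65 CPM in PLET1+ and 0.0421, 0 and 0 CPM, or 2 counts in all, in PLET1- cKO libraries, but 2 of the 3 control PLET1- libraries held it at the level of PLET1+ (29.9, 46.4 and 0.038 CPM).

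Of the leading 12 genes, *Fap*, *Cyba* and *Cdk6* had moderate differences in each pair. *Fap*, a cell surface protease, had 84.5, 108 and 104 CPM in PLET1+ and 37.1, 59.8 and 41.8 CPM in PLET1- libraries, without overlap. *Cyba*, a subunit of NADPH oxidase, had 96.9, 35.7 and 31.8 CPM and 51.6, 20.5 and 14.9 CPM, and overlapped because the replicate 1 pair was high in both populations. *Cdk6*, a kinase of the G1 phase, had 169, 68.4 and 58.2 CPM and 56.7, 27.2 and 38.1 CPM and did not overlap.

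**Figure D2:**
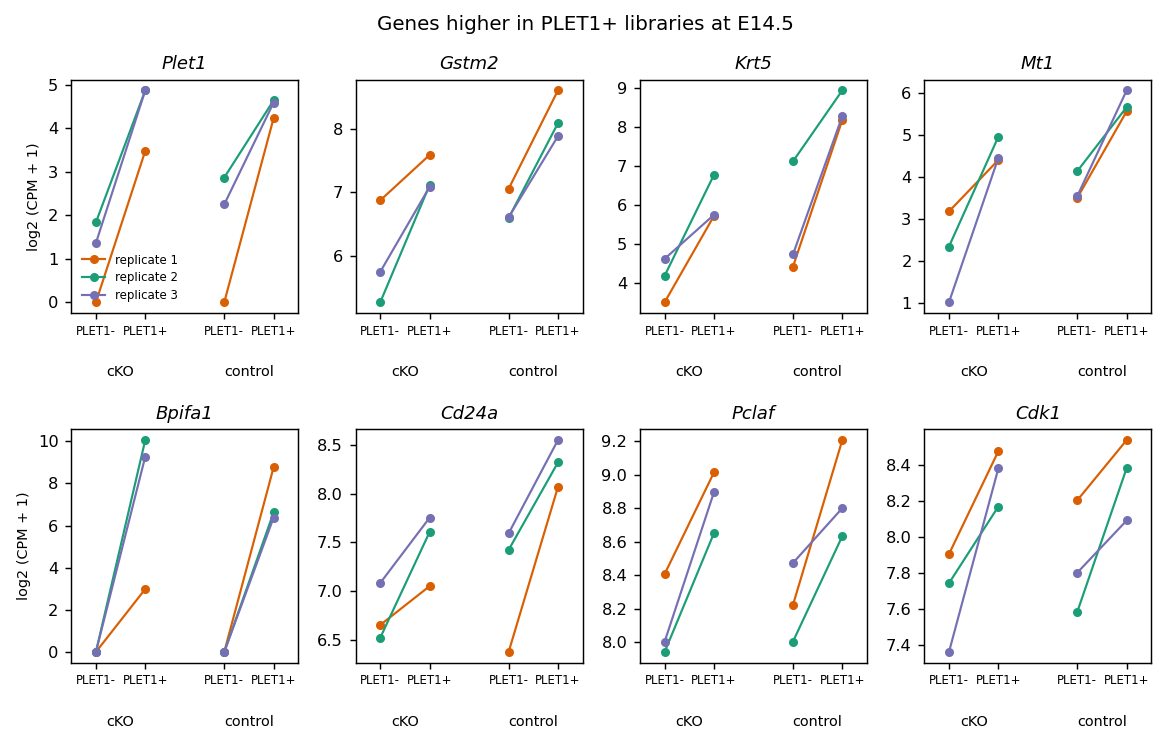
Genes that were higher in PLET1+ libraries, as log2 (CPM + 1) on the y axis in the 12 E14.5 libraries, with a separate scale for each gene. Lines join libraries of one replicate number. *Plet1*, *Gstm2*, *Krt5*, *Mt1* and *Bpifa1* are higher in PLET1+ in all cKO and control pairs, and *Krt5* reaches higher levels in the control than in the cKO PLET1+ libraries.

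Proliferation genes differed less clearly. Of 19 cell division genes 12 had a positive log2 fold change and 3 had an unadjusted p under 0.05, but the list median was 0.095, only 2 genes were higher in all 3 pairs, and the direction depended on single pairs. Without replicate 1 it was 17 of 19 higher with a median of 0.35, and without replicate 3 it was 7 higher and 12 lower with a median of −0.070. *Cdk1*, the kinase that drives entry into mitosis, had 355, 287 and 332 CPM in PLET1+ and 239, 213 and 164 CPM in PLET1- libraries, and *Ube2c*, which marks mitotic cyclins for destruction, had 396, 375 and 529 CPM and 318, 284 and 239.6 CPM. Neither overlapped. *Top2a*, the topoisomerase of dividing cells, had 718, 319 and 466 CPM and 244, 351 and 219 CPM, and its second pair went the other way.

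For DNA replication the pairs were more even. Of 20 genes 13 had a positive log2 fold change (median 0.21 in the cKO, 0.27 in the controls) and 10 were higher in all 3 pairs. *Rrm2*, a subunit of ribonucleotide reductase, had 382, 286 and 269 CPM in PLET1+ and 166, 227 and 184 CPM in PLET1- libraries, without overlap. *Prim1*, a primase subunit, had 309, 107 and 137 CPM and 196, 82.2 and 81 CPM. *Pclaf*, a PCNA-binding factor outside the list, had 516, 401 and 476 CPM and 338, 245 and 256 CPM (log2 fold change 0.74, standard error 0.17, unadjusted p = 0.000551), without overlap. *Fbxo5*, an inhibitor of the anaphase-promoting complex, had 78.9, 36.5 and 38.2 CPM and 42.6, 20.2 and 15.4 CPM, higher in each pair. Scaled to housekeeping genes, which moved the median of all genes by −0.22 on the log2 scale, the list medians were −0.14 for cell division and −0.025 for DNA replication, or 0.078 and 0.19 relative to that shift.

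The medullary list gave no single direction. Of 19 genes tested (*Ccl21a* had too few counts) 11 had a positive and 7 a negative log2 fold change, with a median of 0.31 in the cKO and 0.71 in the controls. The cKO median was 0.71 without replicate 1, 0.16 without replicate 2 and 0.045 without replicate 3. The 2 with an unadjusted p under 0.05, *Krt5* and *Sox9*, are also in the progenitor list. *Krt14*, the partner of *Krt5*, had 18.8, 29.2 and 16 CPM in PLET1+ and 35.7, 13.7 and 9.82 CPM in PLET1- cKO libraries and a log2 fold change of 0.31, and its first pair went the other way. *Trp63*, a transcription factor of basal epithelia, was lower in each pair by a small factor, at 225, 283 and 279 CPM and 234, 298 and 349 CPM. *Spib*, a transcription factor of maturing mTECs, had 0.0305, 5.06 and 2.02 CPM in PLET1+ and 0.505, 0 and 0 CPM in PLET1- libraries. *Tnfrsf11a*, which encodes the RANK receptor, had 0.122, 7.5 and 1.38 CPM and 9.51, 10.04 and 0.786 CPM, and the populations overlapped.

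The receptor genes *Ltbr* and *Cd40* had log2 fold changes of 0.020 and 0.51. *Relb*, the NF-κB subunit needed for mTECs, had one of −0.43, and *Itgb4*, an integrin of basal cells, one of −0.048. Of the regulators of tissue-restricted antigens in mature mTECs, *Aire* reached 3.57 CPM in 1 PLET1- library and at most 0.0916 CPM in the other 5, and *Fezf2* was at 0 in all 6. *Ccl19*, *Cd80*, *Skint1* and *Tnfrsf11b* were at 0 in 1 or more libraries of each population (*Skint1* had 0.214, 6.73 and 0 CPM in PLET1+ and 7.33, 0 and 0 CPM in PLET1- libraries).

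The Notch pathway genes with the smallest p were the target *Heyl* and the receptor *Notch3*, both lower in PLET1+ cKO TECs. *Heyl* (ENSMUSG00000032744.4, chromosome 4, 123233556 to 123249875), a HES-family repressor, had 0.0305, 4.79 and 2.32 CPM in PLET1+ and 0.547, 22.9 and 16.9 CPM in PLET1- cKO libraries, 7.23-fold lower in PLET1+ (log2 fold change −2.85, standard error 0.56, unadjusted p = 0.000143). The populations overlapped because the first PLET1- library lay below PLET1+ libraries 2 and 3, although *Heyl* was lower in PLET1+ in each pair, and without replicate 1 the log2 fold change was −2.54. In the controls *Heyl* had 11, 29.8 and 25.9 CPM in PLET1+ and 18, 41.2 and 33.6 CPM in PLET1- libraries, a log2 fold change of −0.52. The difference between the 2 genotypes was −2.33 on the log2 scale (standard error 0.73, unadjusted p = 0.00641, adjusted p = 1 in edgeR's test), and over all genes 0.909% reached an unadjusted p under 0.05 in that test.

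*Notch3* (ENSMUSG00000038146.7, chromosome 17, 32120820 to 32166880) had 0, 0.418 and 0.498 CPM in PLET1+ and 0.168, 2.95 and 2.32 CPM in PLET1- cKO libraries, lower in each pair (log2 fold change −2.99, standard error 0.95, unadjusted p = 0.00717). In the controls it went the other way in each pair, with 8.84, 9.01 and 8.26 CPM in PLET1+ and 2.27, 6.94 and 3 CPM in PLET1- libraries and a log2 fold change of 1.27. The log2 fold change in the cKO minus that in the controls was −4.26 (standard error 1.29, unadjusted p = 0.00505, adjusted p = 1 in edgeR's test). The 3 control PLET1+ libraries, at 8.26 to 9.01 CPM, were all above the highest cKO library, at 2.95 CPM.

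Among the other receptors, *Notch1* had 0, 6.61 and 7.16 CPM in PLET1+ and 4.19, 5.64 and 6.39 CPM in PLET1- cKO libraries. Its log2 fold change was −1.30 with and 0.21 without the first pair, while the control PLET1+ libraries held 18.4, 16.7 and 18.2 CPM. *Notch2* had 1390, 101 and 85.7 CPM in PLET1+ and 495, 102 and 95.3 CPM in PLET1- libraries, in which replicate 1 was several times above the others in both populations. *Notch4* had 0, 0.516 and 0.64 CPM and 1.41, 1.16 and 0.786 CPM, low throughout but without overlap.

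Of the ligands, *Dll4* (ENSMUSG00000027314.6, chromosome 2, 119325784 to 119335962), the ligand that commits progenitors to the T lineage, had 6.41, 31.1 and 35.1 CPM in PLET1+ and 26, 84.7 and 73.1 CPM in PLET1- cKO libraries, lower in each pair (log2 fold change −1.51, standard error 0.78, unadjusted p = 0.0717). In the controls *Dll4* had a log2 fold change of −0.31, and 1 of the 3 pairs went the other way. *Jag1* had 612, 103 and 74.6 CPM in PLET1+ and 179.6, 52.2 and 66.5 CPM in PLET1- cKO libraries, higher in each pair (log2 fold change 0.97), as it was in each control pair. *Jag2* was lower in each pair, with 6.53, 25.6 and 30.2 CPM and 21, 47.3 and 35.8 CPM. *Dll1* had 0, 2.46 and 2.63 CPM in PLET1+ and 2.93, 3.35 and 0.143 CPM in PLET1- libraries, and *Dll3* was at 0 in 5 of the 6.

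The remaining target genes had unadjusted p-values above 0.05. *Hes1*, the most widely used readout of Notch activity, had 12.8, 33.2 and 51.1 CPM in PLET1+ and 27.3, 32.9 and 28 CPM in PLET1- cKO libraries and a log2 fold change of −0.066, which was 0.45 without replicate 1. *Hey1* had 86.3, 193 and 169.5 CPM and 176, 186 and 205 CPM, and its second pair went the other way. *Hey2* had 1.07, 2.09 and 0.119 CPM in PLET1+ and 10.6, 1.79 and 2.68 CPM in PLET1- cKO libraries, with a log2 fold change of −2.65, and 7.35, 6.52 and 0.38 CPM and 0, 0.607 and 0.019 CPM in the controls, where it was higher in PLET1+ in each pair (unadjusted p of the difference between genotypes 0.0101). *Hes6*, a neurogenic member of the family, had 324, 905 and 986 CPM and 643, 1018 and 1161 CPM, lower in each pair. *Myc* and *Nrarp* had log2 fold changes of −0.12 and 0.14, and *Hes5* had too few counts to be tested. The median over the 7 targets was −0.42 in the cKO and −0.071 in the controls, and −0.097 without replicate 1.

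Of 21 cofactors and modifiers tested, *Rbpj* among them, 14 had a negative log2 fold change. In all 3 pairs 8 were lower and 2 higher, and 0 had an unadjusted p under 0.05. The median was −0.37 in the cKO and 0.088 in the controls, where 11 of the 21 had a positive log2 fold change. *Maml1*, a coactivator that joins RBPJ on DNA, had 0.244, 9.51 and 6.5 CPM in PLET1+ and 10.6, 8.38 and 11.3 CPM in PLET1- libraries, while *Maml2* and *Maml3* had log2 fold changes of 0.65 and −0.88. *Dtx4*, of the Deltex ubiquitin ligases, was the only gene of these 21 whose populations did not overlap, at 0.183, 2.53 and 3.32 CPM and 8.48, 6.28 and 11.1 CPM, and *Dtx1*, *Dtx2* and *Dtx3* had log2 fold changes of −2.61, −0.85 and 0.11. The fringe genes *Mfng* and *Rfng*, which modify the receptors with sugars, had −3.36 and −1.65 on the same scale. For the proteases that cleave the receptors, the values ranged from −1.87 for *Aph1a* to 3.49 for *Psen2*, with 0.70 for *Adam10*, −0.36 for *Adam17*, −0.32 for *Ncstn* and 0.40 for *Psenen*. The inhibitors *Numb* and *Numbl* had −0.37 and −1.96, the ubiquitin ligase gene *Fbxw7* −0.005 and the corepressor gene *Spen* 0.28.

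**Figure D3:**
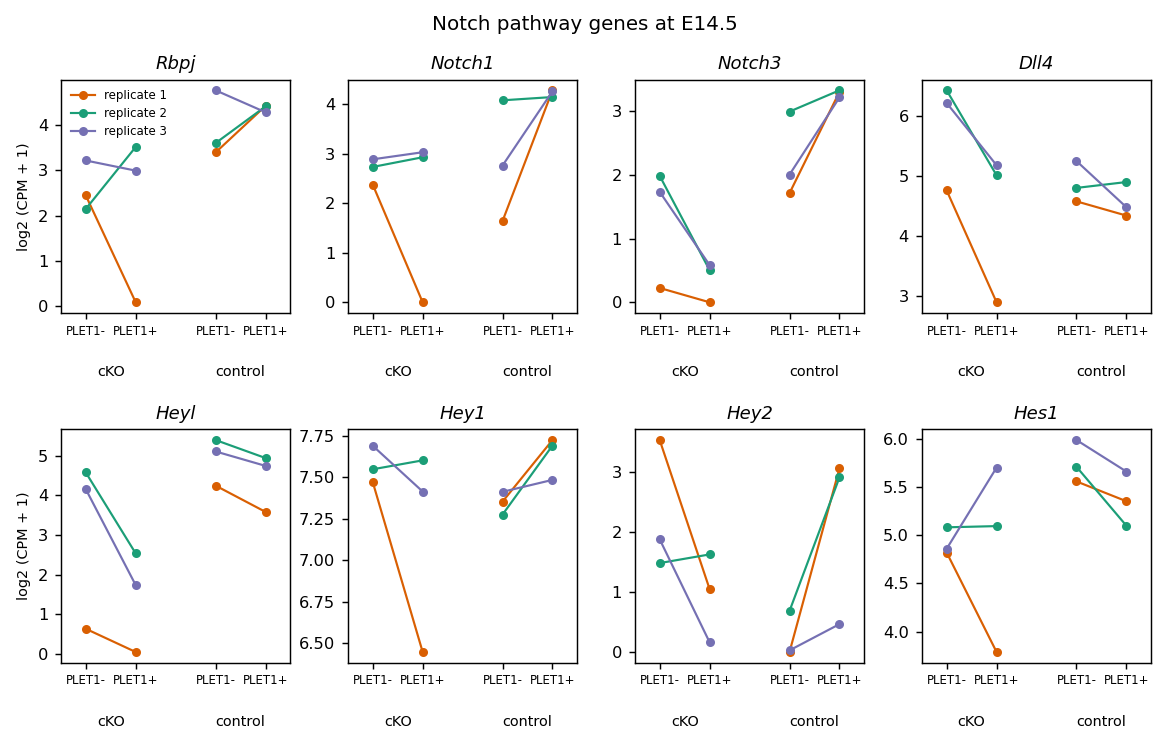
Notch pathway genes in the 12 E14.5 libraries, as log2 (CPM + 1) on the y axis, with a separate scale for each gene. Lines join the PLET1- and PLET1+ libraries of one replicate number. *Notch3* is lower in PLET1+ in the 3 cKO pairs and higher in the 3 control pairs, and *Heyl* is lower in PLET1+ in all 6 pairs, with the steepest lines in replicates 2 and 3 of the cKO, while replicate 1 of the cKO is low in both populations.

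Other signalling genes gave scattered values. Of 16 FGF and EGF pathway genes 11 had a positive log2 fold change (median 0.68 in the cKO and 0.74 in the controls), with 0 at an unadjusted p under 0.05. *Etv5* and *Dusp6*, which FGF signals induce, had 14.9, 42.1 and 45.2 CPM and 86.3, 282 and 222 CPM in PLET1+ and 3.66, 29.6 and 30.2 CPM and 67.8, 143 and 163 CPM in PLET1- libraries, higher in each pair. *Spry4*, a feedback inhibitor of the same pathway, went the other way in each pair, with 0, 5.16 and 3.25 CPM in PLET1+ and 2.44, 7.04 and 9.18 CPM in PLET1- libraries, and was higher in PLET1+ in each control pair (unadjusted p of the difference between genotypes 0.0805). In the BMP and TGF-β list *Tgfbr1*, a TGF-β receptor, had 56.7, 49.7 and 72.6 CPM in PLET1+ and 78.4, 86.4 and 107 CPM in PLET1- libraries, without overlap, and the list median was 0.020. In the WNT list, with a median of −0.11, *Lgr5*, a stem cell receptor for R-spondins, had 1.74, 7.13 and 1.4 CPM in PLET1+ and 0.021, 0.449 and 0 CPM in PLET1- libraries. *Dkk3*, a secreted Dickkopf protein, had 0, 2.68 and 3.82 CPM in PLET1+ and 0 in PLET1- cKO libraries. The controls held 0.655, 0.182 and 1.97 CPM in PLET1+ and 12.8, 8.39 and 2.11 CPM in PLET1- libraries, lower in PLET1+ in each pair. The unadjusted p of the difference between genotypes was 0.0142 in edgeR's test, which called 0 genes after adjustment. Of 17 NF-κB and TNF receptor genes 13 had a negative log2 fold change, with a median of −0.18. Without replicate 1 it was 9 of 17 with a median of −0.013, and without replicate 2 the median was −0.41. In the controls 12 of the 17 had a positive log2 fold change, with a median of 0.20.

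Among 24 keratin and junction genes 15 had a positive log2 fold change, 5 were higher and 3 lower in all 3 pairs, and the median was 0.22 in the cKO and 0.83 in the controls (−0.007 in the cKO when scaled to the housekeeping genes, 0.21 relative to all genes). *Cldn7*, a tight junction claudin, had 3.21, 13.7 and 7.02 CPM in PLET1+ and 0, 5.79 and 1.07 CPM in PLET1- libraries, higher in each pair. *Krt15*, a basal keratin, had 9.34, 9.83 and 3.89 CPM and 0, 1.68 and 0 CPM, without overlap.

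**Figure D4:**
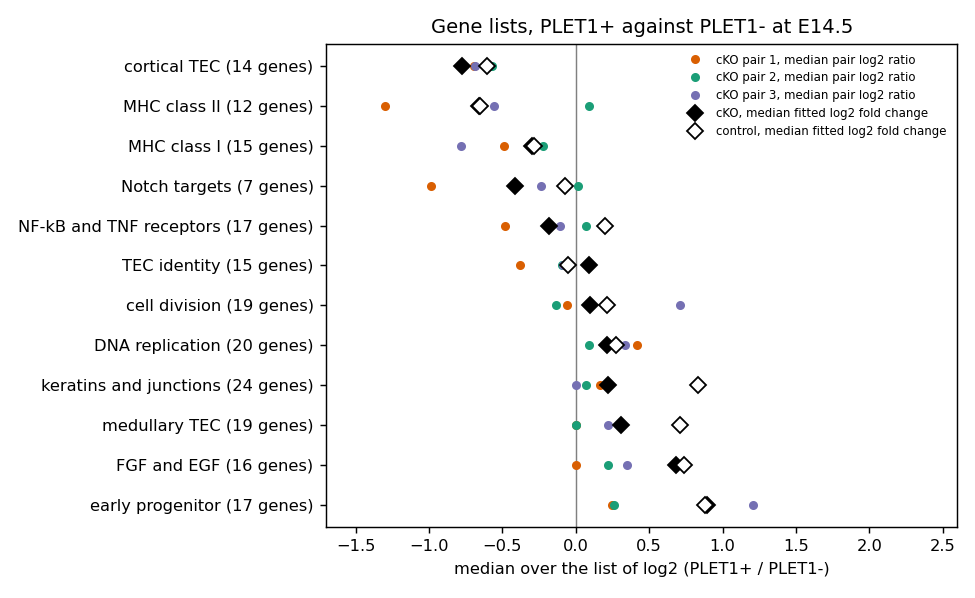
Median over each gene list of the log2 ratio of PLET1+ to PLET1- (x axis), for 12 lists (y axis, with the number of genes tested). Filled diamonds give the fitted cKO and open diamonds the fitted control median, and coloured points give the 3 cKO pairs from their own CPM values with 0.5 CPM added. The cortical list lies at −0.77 with all 3 pairs close together, whereas the class II and Notch target lists spread more widely, with pair 1 furthest to the left.

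The remaining genes of the 12 that led the lower direction were of mixed kinds. *Srebf1*, a transcription factor of lipid synthesis, had 28.7, 44.1 and 43.4 CPM in PLET1+ and 62.2, 120.0 and 76.4 CPM in PLET1- cKO libraries, without overlap (log2 fold change −1.13, standard error 0.34, unadjusted p = 0.00514). *Hspa1a*, a stress-induced heat shock protein, had 8.3, 14.2 and 5.31 CPM and 22.7, 25.1 and 16.7 CPM, without overlap as well. *Scnn1g*, a subunit of the epithelial sodium channel, had 0, 0 and 0.0237 CPM in PLET1+, a single count in all 3 libraries, and 7.09, 10.3 and 4.07 CPM in PLET1- libraries. *Rsrp1* was lower in each pair by a smaller factor, at 144, 237 and 363 CPM and 248, 349.9 and 492 CPM. *Cxcl13*, a chemokine for B cells, was at 0 in the PLET1+ libraries and owed its place to 1 PLET1- library, with 203, 0.118 and 0.107 CPM, at least 858-fold lower in PLET1+ against the floor of 3 counts per library, which rests on that 1 library.

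The summed markers of mesenchymal and of parathyroid cells were higher in the PLET1- library of each cKO pair. The 12 mesenchymal markers summed to 21.9 to 117 CPM in the PLET1+ and 82.7 to 623 CPM in the PLET1- cKO libraries, and in the third pair the sums were nearly level, at 79.7 and 82.7 CPM. Of the 12 markers 9 had a negative log2 fold change (6 without replicate 1), but only 2, *Postn* and *Col3a1*, were lower in all 3 pairs, as were 13.2% of all genes. *Postn*, a matrix protein of fibroblasts, had 0.214, 0.344 and 0 CPM in PLET1+ and 48.9, 40.5 and 8.46 CPM in PLET1- libraries, without overlap, and *Col3a1*, a fibrillar collagen, had 0, 0.467 and 1.52 CPM and 37.8, 18.5 and 2.86 CPM. *Dcn*, a proteoglycan of the same cells, reached 354 CPM in the first PLET1- library and at most 16.6 CPM in the other 5. *Fbln1*, a matrix fibulin, had 15.3, 72 and 62.7 CPM in PLET1+ and 9.03, 79.6 and 53.7 CPM in PLET1- libraries, with a log2 fold change of 0.28, and *Pdgfra*, a growth factor receptor, was found in 1 library of each population, at 1.62 CPM in PLET1+ and 0.118 CPM in PLET1-. The matricellular gene *Sparcl1*, 1 of the 12 leading lower genes, had 0, 0.0491 and 0.0237 CPM in PLET1+ and 3.66, 46.4 and 7 CPM in PLET1- libraries.

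The 5 parathyroid markers, from the gland that shares its origin with the thymus, summed to 6.65 to 27.4 CPM in PLET1+ and 30.4 to 364 CPM in PLET1- cKO libraries, and 4 of the 5 were lower in all 3 pairs. *Pth*, the hormone gene, had 0.275, 0.147 and 0.19 CPM in PLET1+ and 0.989, 202 and 276 CPM in PLET1- libraries, and *Chga*, a granule protein of endocrine cells, had 0, 0.27 and 0 CPM and 0.105, 47.9 and 55.9 CPM. *Gcm2*, the regulator that defines the gland, had 0, 0 and 1.16 CPM and 0.021, 4.2 and 3.68 CPM. *Casr*, the calcium-sensing receptor, was higher in PLET1+ in all 3 pairs, at 0.183, 6.81 and 3.58 CPM and 0, 0.945 and 2.93 CPM. Both sets of markers were low in the third PLET1- control library, at 85.4 CPM for the mesenchymal and 12.8 CPM for the parathyroid sum. The parathyroid sum was not confined to PLET1- libraries. In the second PLET1+ control library it was 429 CPM, above every cKO library. The part of these cells in the results was not tested.

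Blood and vessel cells left less. The thymocyte markers summed to 15.4 to 22.7 CPM in PLET1+ and 5.45 to 21.3 CPM in PLET1- libraries, and 3 of the 14 were at 0 in all 6. Different genes made up these sums. The first PLET1+ library held *Ptprc* at 13.4 CPM and *Cd3g* at 7.51 CPM, and every other library at most 0.253 CPM of either. Both genes were left out by the filter on low counts. *Lck* had 0.0611 CPM in that library and 3.54 to 15.6 CPM in the others. Endothelial markers summed to at most 14.6 CPM, neural crest markers to at most 3.32 CPM, macrophage and dendritic markers to at most 2.27 CPM and erythroid markers to at most 1.54 CPM, and of the last 2 lists 8 of 11 and 8 of 10 genes were at 0 in all 6 libraries.

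**Figure D5:**
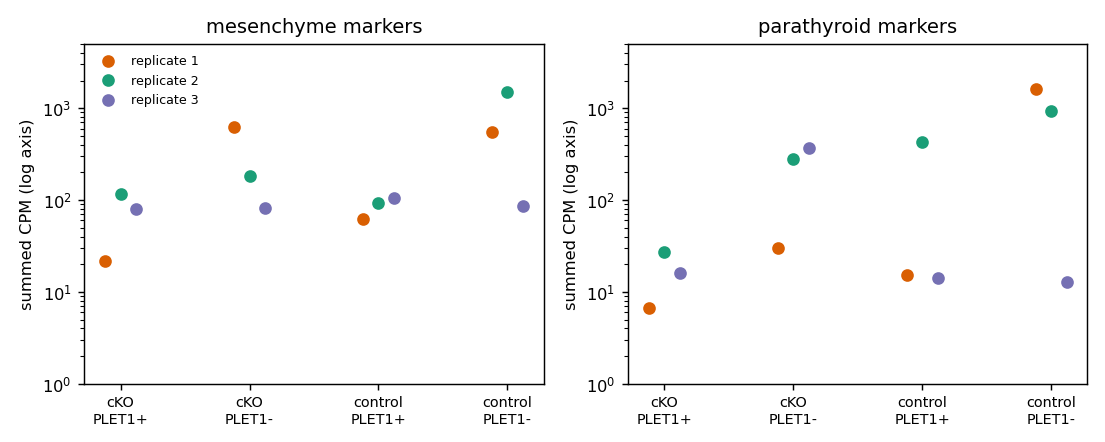
Summed CPM (log axis) of 12 mesenchymal and 5 parathyroid markers in each of the 12 E14.5 libraries, coloured by replicate number. In the cKO both sums are higher in the PLET1- library of each pair, narrowly so for the mesenchymal sum of replicate 3. In the controls the third PLET1- library is low in both sums, and the second PLET1+ library is high in the parathyroid sum.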

How the data were processed

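Gene expression was measured by RNA-seq in the libraries described above. The deposited counts are whole-number fragments per gene, not normalized. Per the submitters' processing notes the authors trimmed reads with Trimmomatic 0.32, aligned them with STAR 2.5.1a to GRCm38 and counted them on GENCODE vM12 with featureCounts, given as version 1.5.1 in the notes and 1.5.0-p3 in the table's header. Without molecular identifiers, PCR copies could not be told from separate molecules, so floors cover counting error only.

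From these counts edgeR 4.0.16 (R 4.3.3) computed TMM factors and a quasi-likelihood fit over all 23 libraries. Of 50123 genes 34811 had a count and 19140 passed edgeR's filter on low counts. The E14.5 cKO and control pairs each entered as a replicate block. A fitted log2 fold change of a gene at 0 in 1 population depends on the prior count, so bounds against 3 counts per library are given instead. Pairing was checked on deviations from the group means over 4545 genes. Same-numbered cKO libraries correlated at 0.706, 0.603 and 0.557, and control ones at 0.690, 0.474 and 0.494. Replicates 2 and 3 also correlated across numbers, at 0.532 and 0.577 in the cKO and 0.451 and 0.326 in the controls, and replicate 1 correlated with them at −0.660 to −0.486. The check thus set replicate 1 apart but did not tell cKO replicates 2 and 3 apart. DESeq2 1.42.0, limma 3.58.1 (voom), other scalings, filters, blocks and left-out pairs were alternatives, and the scripts were tested on simulated data.

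The members and gene lists were chosen with earlier results of these data known. Genes were named by rule: the 12 per direction with the smallest p that differed one way in all 3 pairs and reached a mean of 5 CPM in the higher group, *Plet1*, *Rbpj*, *Epcam* and *Foxn1*, the 2 members of each list with the smallest p in each direction, and any medullary or Notch member. Further list members were chosen after their values were seen, and a few members counted in the lists are not reported here by name. Gene symbols were found for 98.4% of identifiers.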

Additional observations from a re-analysis of the deposited data

Results flagged for a closer look

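For 3 of the genes named, every cKO pair differed one way and every control pair the other. For *Notch3* the log2 fold change of PLET1+ over PLET1- in the cKO minus that in the controls was −4.26 (unadjusted p = 0.00505). For *Spry4* the difference of log2 fold changes was −4.42 (unadjusted p = 0.0805), and its first cKO PLET1+ library held 0 counts. For *Calr* it was −0.35 (unadjusted p = 0.134). All 3 had an adjusted p of 1 in edgeR's test of the difference between genotypes, so none passed it.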

How the results depend on the processing

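Of the counts of called genes in the cKO comparison, 12 alternatives also gave 0. DESeq2 with the replicate block called 64 genes and limma-voom with it 2, and the average of the cKO and control differences called 1. For the difference between genotypes DESeq2 called 40 genes. Without the replicate block, and with batch terms, 442 genes had an unadjusted p under 0.05 in the cKO against 273 with it, with neither block nor batch terms 547, with a block shared by the genotypes 389, with the 12 libraries of the E14.5 cross alone 980, with the 6 cKO libraries alone 515, and with pair 1 left out 152. Scaling to housekeeping genes gave 93 higher and 166 lower genes at that p, where TMM gave 164 and 109.

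The cortical median of −0.77 was −0.69 without the block, with or without batch terms (−0.688 and −0.686), −0.67 with limma-voom and −1.01 with housekeeping scaling. The medullary median of 0.31 was 0.13 without the block, 0 with neither block nor batch terms, 0.055 with a shared block, 0.56 in the 6 cKO libraries, 0.12 with limma-voom, 0.084 with housekeeping scaling, 0.17 without a filter and 0.52 with a stricter one. The DNA replication median of 0.21 was −0.025 with housekeeping scaling, 0.19 relative to all genes. With pairs left out in turn the medians ran from −0.742 to −0.623 (cortical), 0.045 to 0.71 (medullary), 0.58 to 0.90 (early progenitor), −0.80 to −0.22 (class II), −0.61 to −0.33 (class I), −0.61 to −0.097 (Notch targets), −0.070 to 0.35 (cell division) and 0.20 to 0.26 (DNA replication). The causes were not tested. Among the 1795 values of the 132 genes tracked under the alternatives, 17 passed the threshold with their sign kept, under DESeq2 or limma-voom. With 3 pairs a single gene cannot reach an exact permutation p below 0.25.

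The sign changed in 77 of those values, over 33 genes, 19 of them without replicate 1, and 0 of the 77 passed the threshold in edgeR's, DESeq2's or limma's test. Without the replicate block but with batch terms the log2 fold change was 0.16 for *Aurkb*, −0.058 for *Dtx3*, 0.066 for *Fbxw7*, 0.042 for *Hes1*, −0.037 for *Ltbr*, −0.44 for *Nrarp*, −1.33 for *Pecam1*, 0.19 for *Rbpj* and −0.088 for *Skint1*. With neither block nor batch terms the log2 fold change was 0.21 for *Aurkb*, −0.086 for *Dtx3*, 0.12 for *Fbxw7*, −2.13 for *Flt1*, 0.14 for *Hes1*, 0.029 for *Kif20a*, −0.047 for *Ltbr*, 0.025 for *Myc*, −0.12 for *Nrarp*, 0.27 for *Numbl*, −0.85 for *Pecam1*, 0.11 for *Rbpj* and −0.078 for *Skint1*. With a block shared by the genotypes the log2 fold change was 0.77 for *Fcgr3*, 0.009 for *Hes1*, −0.019 for *Pecam1* and −0.89 for *Skint1*. In the 12 libraries of the E14.5 cross the log2 fold change was 0.038 for *Fbxw7*. In the 6 cKO libraries the log2 fold change was 0.040 for *Fbxw7*. With DESeq2 the log2 fold change was 0.004 for *Fbxw7* and −0.035 for *Thy1*. With limma-voom the log2 fold change was 0.21 for *Aurkb*, −0.002 for *Ctss*, −0.056 for *Dtx3*, 0.12 for *Fbxw7*, 0.099 for *Hes1*, −0.038 for *Ltbr* and 0.007 for *Myc*. With RLE factors the log2 fold change was 0.004 for *Fbxw7*. With housekeeping scaling the log2 fold change was −0.036 for *Ctss*, −0.11 for *Dtx3*, −0.038 for *Hprt*, −0.21 for *Ltbr*, −0.024 for *Nfkb1* and −0.16 for *Psmb8*. Without a filter the log2 fold change was 0.003 for *Fbxw7*. With the stricter filter the log2 fold change was 0.004 for *Fbxw7*. With pairs left out in turn it ran from −8.29 to 1.58 for *Aire*, −1.03 to 0.55 for *Aurkb*, −1.34 to 0.023 for *Cdt1*, −4.26 to 1.84 for *Dll1*, −0.53 to 0.63 for *Dtx3*, −0.22 to 0.20 for *Fbxw7*, −8.06 to 0.90 for *Fcgr3*, −0.27 to 0.53 for *Flt1*, −1.35 to 0.041 for *Fzd2*, −0.23 to 1.77 for *Hba-a2*, −0.53 to 0.45 for *Hes1*, −0.21 to 0.26 for *Itgb4*, −0.67 to 0.14 for *Kif20a*, −0.11 to 0.91 for *Krt14*, −2.56 to 0.16 for *Lck*, −0.12 to 0.14 for *Ltbr*, −0.29 to 0.21 for *Myc*, −0.67 to 1.04 for *Nlrc5*, −3.30 to 0.21 for *Notch1*, −0.070 to 0.74 for *Notch2*, −0.84 to 1.10 for *Nrarp*, −0.49 to 1.72 for *Pecam1*, −0.40 to 0.73 for *Psmb8*, −2.94 to 0.69 for *Rbpj*, −2.62 to 6.94 for *Ret*, −4.52 to 10.14 for *Skint1*, −0.090 to 0.50 for *Spen*, −2.14 to 6.59 for *Thy1* and −3.22 to 0.20 for *Tnfrsf11a*.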

Other observations

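*Clspn* and *Mdk*, also among the 273 genes with an unadjusted p under 0.05, were chosen here after their values were seen. *Clspn*, a replication checkpoint adaptor, had a mean of 26.2 CPM in PLET1+ and 6.68 CPM in PLET1- cKO libraries. *Mdk*, the secreted growth factor midkine, had a mean of 879 CPM in PLET1+ and 592 CPM in PLET1- (log2 fold change 0.53, and 0.46 in the controls). Both had an adjusted p of 1 in edgeR's test.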
